A study of Mus musculus with 6 samples.

Results

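Tcf7l1 and 9 pluripotency factor genes (Pou5f1, Sox2, Nanog, Esrrb, Klf4, Tfcp2l1, Sall4, Lin28a and Zfp42) were examined for RNA sites of BAZ2A, a chromatin-associated protein that binds RNA, in mouse embryonic stem cells (ESCs). Tcf7l1 was chosen by its number of peaks, 7, in the list of BAZ2A peaks, and the other 9 because they are core genes of the pluripotent state, whether or not they had a peak. All peaks listed under their gene identifiers were taken. This gave 22 of the 3127 peaks of the list, in 9 of the 10 genes. Without Tcf7l1, which has peaks by choice, 8 of 9 genes had a peak, against 9.78% of all 21755 protein-coding genes. All 10 genes were chosen with earlier results of these data known, so this contrast is not free of that choice. The list names 2288 genes in all.

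The peaks come from iCLIP, in which UV light joins proteins to RNA in contact with them and the RNA precipitated with BAZ2A is sequenced as cDNA. Both groups of libraries were made from nuclei of E14 ESCs grown in N2B27 medium with LIF/2i, and in both the endogenous BAZ2A carried Flag and HA tags and was precipitated with an anti-FLAG antibody. The cells of the 3 crosslinked libraries had received UV light and those of the 3 background libraries had not. The deposited list is 1 set of peaks for the whole series, with a score for each peak whose scale is not stated in the sources used here. Single libraries were not analysed here. No value below therefore has a replicate error or a known depth behind it, and no test between the groups could be run.

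ESCs keep their identity through a network of transcription factors that bind each other's genes, with Pou5f1 (OCT4), Sox2 and Nanog at its centre and Esrrb, Klf4 and Tfcp2l1 reinforcing it in the naive state. Tcf7l1 (also called TCF3) works against this network: it is the main DNA-binding TCF/LEF factor of ESCs and represses many of the same genes, and Wnt signalling through β-catenin relieves that repression. The 2i medium holds an inhibitor of GSK3, the kinase that marks β-catenin for destruction, which keeps β-catenin stable in cells grown in it. A peak means that RNA of a gene was recovered with BAZ2A above background. It is neither a transcript level nor evidence of an effect on the gene, and transcript levels were not used here.

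The sequences of 11 of the 22 peaks are shown first, read from the RefSeq genome of the build GRCm38 (mm10), 5′ to 3′ on the strand of the gene and written as DNA. They were picked to show the exonic and the intronic peaks of Tcf7l1, the coding peaks of Sox2 and Nanog, the peaks with the highest scores, and examples of pyrimidine-rich sequence. Capitals mark 5 nt centred on the mode, the single position that the list gives inside each peak. Peaks in CDS or introns are printed whole and those in UTRs as a window of 30 nt around the mode.
Tcf7l1, 5'UTR of exon 1, chr6:72789078-72789107, minus strand: ggcccgcttcccacaGAGCCacgccctgtc
Tcf7l1, CDS of exon 1, chr6:72788807-72788939, minus strand: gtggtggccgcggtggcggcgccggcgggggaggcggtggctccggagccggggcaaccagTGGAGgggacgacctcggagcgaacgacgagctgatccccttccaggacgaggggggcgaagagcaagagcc
Tcf7l1, start of intron 3, chr6:72788187-72788201, minus strand: agtccgGCCGTgccg
Tcf7l1, intron 3, highest score, chr6:72757863-72757930, minus strand: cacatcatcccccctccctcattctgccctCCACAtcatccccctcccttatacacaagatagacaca
Tcf7l1, intron 3, also listed on the other strand, chr6:72700226-72700313, minus strand: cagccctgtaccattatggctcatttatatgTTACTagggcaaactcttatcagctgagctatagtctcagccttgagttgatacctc
Sox2, CDS, chr3:34651193-34651292, plus strand: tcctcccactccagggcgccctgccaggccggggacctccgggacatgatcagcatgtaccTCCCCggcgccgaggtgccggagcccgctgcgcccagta
Nanog, CDS at the splice site, chr6:122711534-122711584, plus strand: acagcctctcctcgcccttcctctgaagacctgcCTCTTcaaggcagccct
Nanog, 3'UTR, chr6:122713842-122713871, plus strand: tttgtttatcaagACAGGgtttctctgcat
Esrrb, 3'UTR, chr12:86519288-86519317, plus strand: ttttttttccttcTCCATgggcagtgctaa
Klf4, 5'UTR, chr4:55531869-55531898, minus strand: cggaggaccttctGGGCCcccacattaatg
Zfp42, intron 4, chr8:43299277-43299345, minus strand: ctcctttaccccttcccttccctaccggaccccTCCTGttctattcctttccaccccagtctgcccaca

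Tcf7l1 (ENSMUSG00000055799) spans chromosome 6 from 72626378 to 72789254, on the minus strand. Its 7 peaks were all in the first part of the gene: 2 in exon 1 and 5 in intron 3 of its principal annotated transcript, with 0 in the other introns, the other exons or the 3'UTR. Of protein-coding genes, 0.0414% (9 of 21755) had 7 peaks or more, and 4 genes of the list had more than 7. The number of peaks is what Tcf7l1 was chosen for, so nothing is drawn from it. The nearest genes on either side of that limit were the other 4 genes with 7 peaks and the 8 genes with 6.

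From the 5′ end, the first Tcf7l1 peak lay in the 5'UTR (chr6:72789078-72789134, score 3.48). The next covered only coding bases of exon 1 (chr6:72788807-72788939, score 5.22), with its midpoint 79 nt past the start of the coding sequence. In both, GC content was high, at 73.7% and 74.4%, against 57.5% over the exons of the gene. The third was a peak of 15 nt with 80% GC at the very start of intron 3 (chr6:72788187-72788201, score 2.32), its midpoint 17 nt from the splice site. The midpoints of these 3 peaks thus lay in the first 1061 nt of a gene of 162877 nt.

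The other 4 peaks were spread through intron 3 in a pair of groups. The first group held the peak with the highest score of the gene (chr6:72757863-72757930, score 10.4, rank 403 of 3127) and, 4361 nt upstream of it in the RNA, a peak with a score of 2.6 (chr6:72762292-72762344). The second group lay about midway along the gene, 57128 nt further on, and held peaks with scores of 3.30 (chr6:72700666-72700734) and 5.66 (chr6:72700226-72700313), which were 352 nt apart. Of the 7 scores, 3 were above the median of the whole list, 4.28. The highest of them was intronic.

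**Figure D1:**
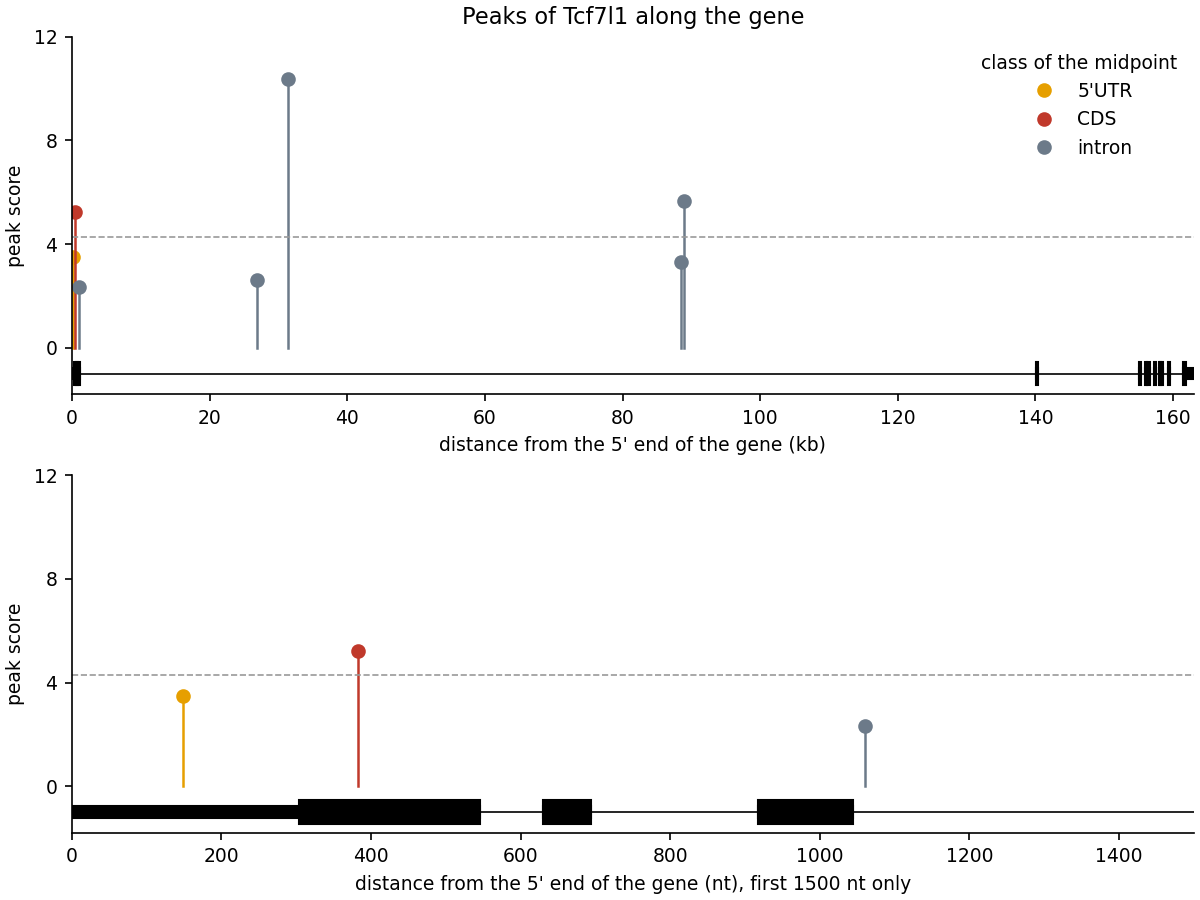
Peaks of Tcf7l1 against distance from the 5′ end of the gene, over the whole gene in kb (top) and over its first 1500 nt (bottom). The height of each line is the peak score, colours give the class of the peak midpoint, the dashed line is the median score of all peaks (4.28), and the black boxes below are exons of its principal transcript, with coding parts taller. A reader should see 3 peaks within the first 1061 nt, the highest score of 10.4 in intron 3 and none over the exons in the 3′ part.

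Intron 3 is 139007 nt long and makes up 85.3% of the Tcf7l1 span, while exons make up 2.41%. Per length, the exonic peaks were the denser, at 0.510 peaks per kb of exon (2 peaks in 3924 nt of merged exons). The intronic peaks stood at 0.0315 per kb of intron (5 peaks in 158953 nt). Both densities rest on few peaks and were not set beside those of all genes, so the contrast is not shown to be particular to Tcf7l1. Over its whole span Tcf7l1 had 0.0430 peaks per kb, which ranked 849 in the list, where the median gene had 0.0272. Of the 1307 protein-coding genes at least as long as Tcf7l1, 345 (26.4%) had a peak, against 9.78% of protein-coding genes of any length, and 4 (0.306%) had 7 or more. The place of Tcf7l1 in these comparisons follows from its choice by number of peaks, so nothing is drawn from it.

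Of the other 4 genes with 7 peaks, 3 had all of them in exons. Lamc1, which encodes a laminin chain, had 0 intronic peaks and a summed score of 58.8. Canx, a chaperone of the endoplasmic reticulum, and Slc2a1, a glucose transporter, also had 0 intronic peaks, with summed scores of 55.8 and 54.9. Grik3, a glutamate receptor subunit, was the one with a like layout to Tcf7l1: 6 of its 7 peaks were intronic. Its summed score of 31.2 was also close to that of Tcf7l1 (32.96).

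**Figure D2:**
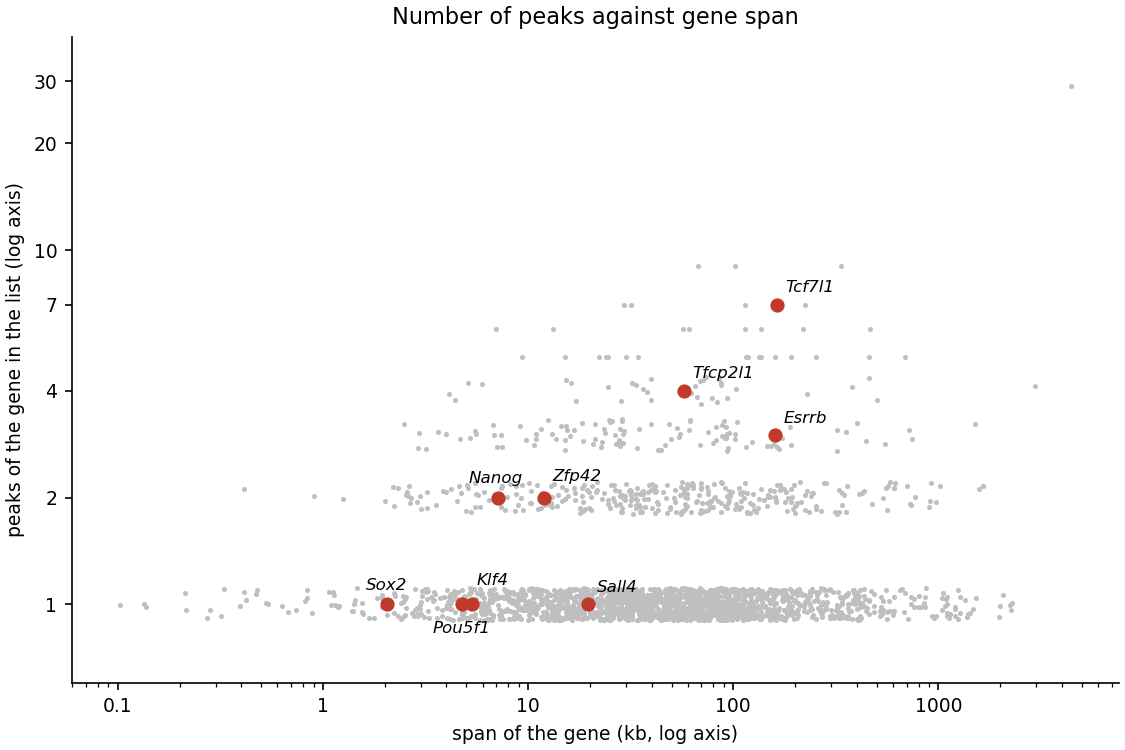
Number of peaks of each gene in the list against the span of the gene, both on log axes. Each grey point is 1 gene (points at 4 peaks or fewer are spread a little vertically so that they can be told apart) and red points are the 9 genes described here that have a peak. Tcf7l1, with 7 peaks in 162877 nt, stands above Esrrb, with 3 peaks in 160512 nt, and above most genes of its span. It was chosen for its number of peaks, so its height here is not a result.

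Another gene lies across the second group of intronic peaks. Gm15402, an antisense transcript on the plus strand (chr6:72699214-72705090), covers both of them. The interval chr6:72700226-72700313 is listed 2 times, under Tcf7l1 with a score of 5.66 and under Gm15402 with a score of 5.41, with the same mode. Which strand gave the signal cannot be told from the list. Without intervals listed under another gene, Tcf7l1 kept 6 peaks.

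Among the other 9 genes, 8 had a peak, and Lin28a had none. They held 15 peaks in all. Of these 9 genes, 4 had 2 peaks or more, against 2.20% of protein-coding genes. By class, 9 of the 15 were exonic (60.0%: 5 in 3'UTRs, 2 in CDS and 2 in 5'UTRs) and 6 intronic, whereas 2 of the 7 Tcf7l1 peaks were exonic (28.6%). In the whole list 50.7% of peaks were exonic, and over all 10 genes 11 of 22.

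**Figure D3:**
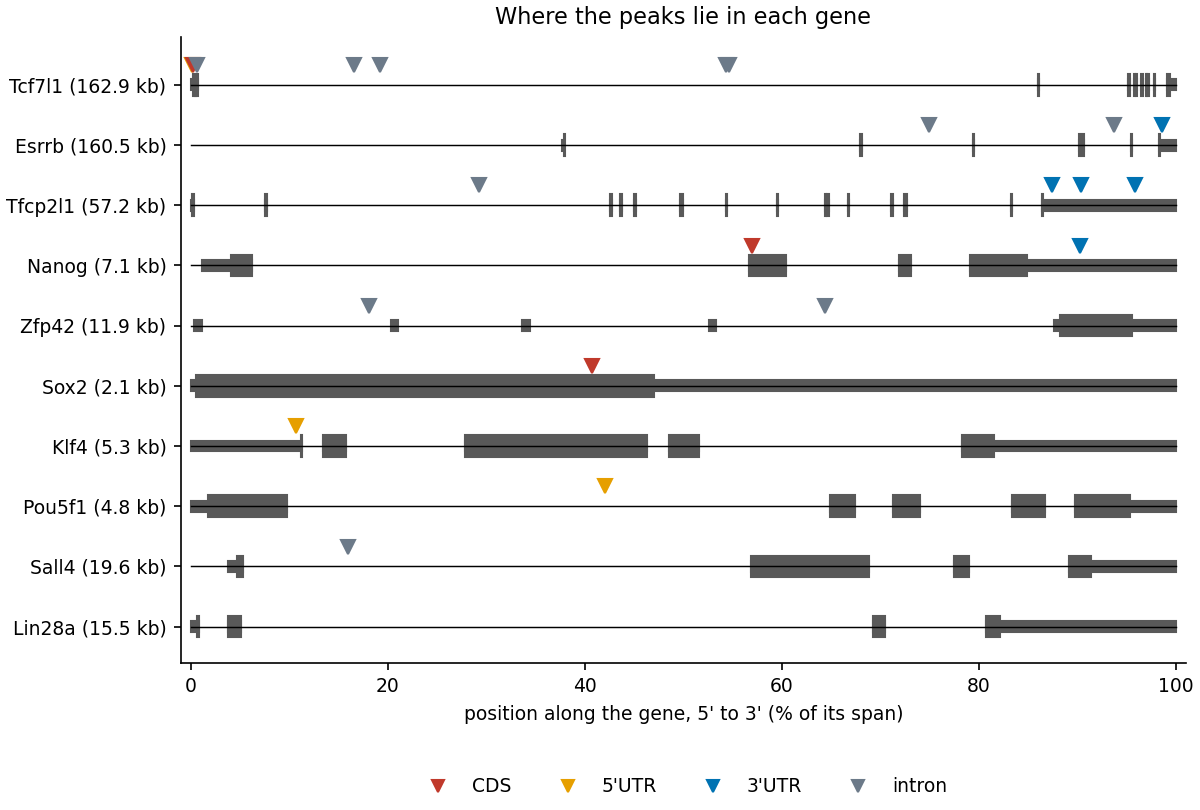
Position of the peaks (triangles, coloured by class of the midpoint) along each gene, as a percentage of its span from the 5′ to the 3′ end. Grey boxes are exons of 1 transcript per gene, with coding parts taller, and the span in kb is given beside each name. The peaks of Tcf7l1 sit in the first 54.6% of the gene, while 4 of the 7 peaks of Esrrb and Tfcp2l1 sit in 3'UTRs at the far end, and the Pou5f1 peak is in the 5'UTR of another transcript than the one drawn.

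The 3 factors at the centre of the network had 4 peaks, all of them exonic in at least 1 transcript. Nanog (ENSMUSG00000012396), a homeobox factor, lies on chromosome 6 from 122707489 to 122714633 and held the highest score of all 10 genes: 19.5 (rank 152), for a peak of 268 nt wholly inside the 3'UTR (chr6:122713805-122714072). Its other peak (chr6:122711534-122711584, score 4.07) lay across the 3′ splice site of intron 1, with 47 bases in the CDS of exon 2 and 4 in the intron. The higher score was thus in the 3'UTR of Nanog and the lower at the start of exon 2.

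Sox2 (ENSMUSG00000074637), an HMG-box factor that binds DNA together with OCT4, is a gene of 1 exon on chromosome 3 (34650405 to 34652461). Its peak (chr3:34651193-34651292, score 8.24, rank 566) was wholly coding, with a GC content of 73.0%, against 50.5% over its transcript, and its midpoint lay 826 nt past the start of a coding sequence of 957 nt. The same interval, with the same mode, was also listed under Sox2ot, a long non-coding transcript on the same strand in whose intron Sox2 lies, with a score of 8.46. The RNA of Sox2 and an unspliced RNA of Sox2ot cannot be told apart here.

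Pou5f1 (ENSMUSG00000024406) on chromosome 17 (35506018 to 35510772) had 1 peak (chr17:35507985-35508048) with a score of 3.47, below the list median. Its place depends on the transcript. It lay in the 5'UTR of 1 of the 6 annotated transcripts and in intron 1 of the principal one.

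Of the factors of the naive state, Esrrb, an orphan nuclear receptor, and Tfcp2l1, a CP2-family factor, had the most peaks after Tcf7l1, with 3 and 4. In Esrrb (ENSMUSG00000021255, chromosome 12 from 86361117 to 86521628) the score of the 3'UTR peak (chr12:86519245-86519339), 12.3 at rank 291, stood far above those of the intronic peaks, 4.91 (chr12:86511465-86511551, intron 5) and 2.57 (chr12:86481364-86481397, intron 2). The midpoint of the 3'UTR peak was 230 nt past the last coding base. Esrrb thus had 1 exonic peak in a gene almost as long as Tcf7l1, and it was its highest.

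Tfcp2l1 (ENSMUSG00000026380, chromosome 1 from 118627945 to 118685168) had 3 peaks in the long 3'UTR of its last exon, at chr1:118677925-118677966, chr1:118679625-118679722 and chr1:118682782-118682832. Their scores were 3.41, 5.57 and 4.20. The fourth, in intron 2, scored 4.80. No class stood apart in this gene: the intronic score lay inside the range of the 3'UTR scores, and all 4 were between the quartiles of the list (3.01 and 6.82).

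Klf4 (ENSMUSG00000003032), a zinc-finger factor on chromosome 4 (55527143 to 55532466), had 1 peak with a score of 4.04 (chr4:55531868-55531934). It lay over the start codon, with 63 bases in the 5'UTR and 4 in the CDS.

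The peaks of the last group were few and low. Sall4 (ENSMUSG00000027547), a zinc-finger partner of OCT4, had 1 intronic peak of 24 nt with a score of 2.72 (chr2:168764795-168764818). Zfp42 (ENSMUSG00000051176; REX1), a widely used marker of the undifferentiated state, had 2 intronic peaks, at chr8:43304813-43304839 and chr8:43299277-43299345, with scores of 1.92 and 3.58. Lin28a (ENSMUSG00000050966, chr4:134003330-134018841), an RNA-binding protein that blocks maturation of let-7 miRNAs, had 0 peaks in 15512 nt, so it was not detected in this list at this depth. In these 3 genes no peak lay in an exon.

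**Figure D4:**
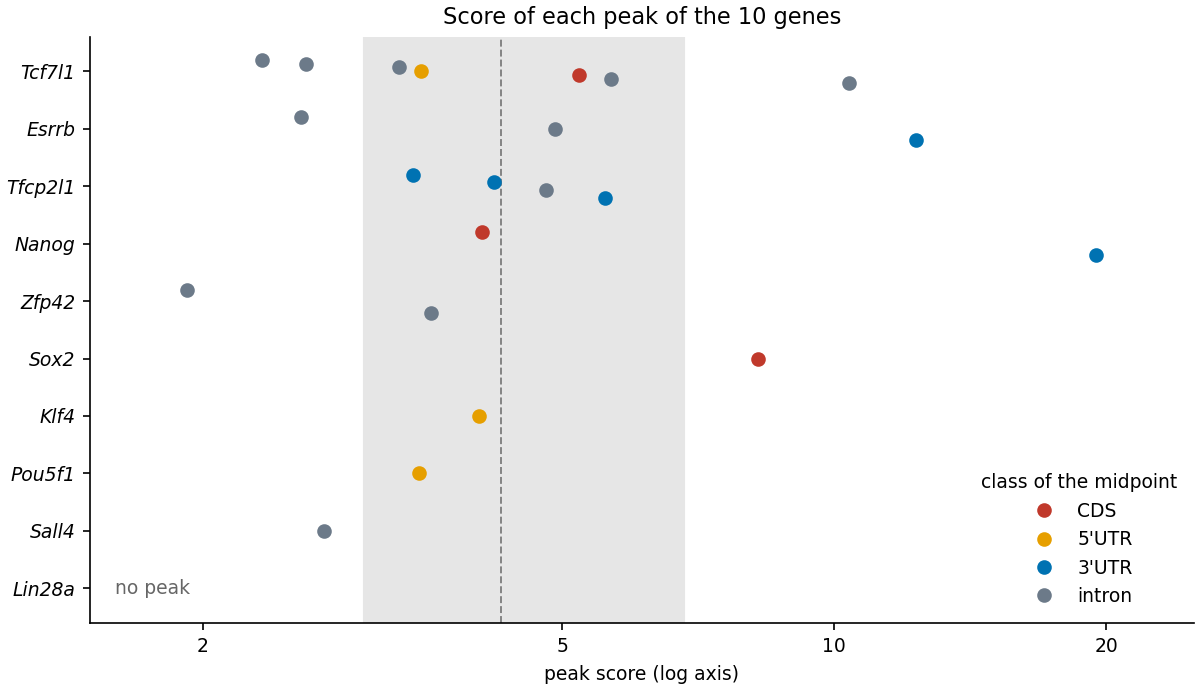
Score of each of the 22 peaks by gene, on a log axis, coloured by the class of the midpoint. The dashed line is the median of all 3127 peaks (4.28) and the grey band runs between their quartiles (3.01 to 6.82). The 4 points right of the band are the 3'UTR peaks of Nanog (19.5) and Esrrb (12.3), an intronic peak of Tcf7l1 (10.4) and the CDS peak of Sox2 (8.24).

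In score, the 22 peaks lay near the middle of the list. Their median was 4.06 (range 1.92 to 19.5) against 4.28, with 9 above the list median and 4 above its upper quartile. By highest score the order of the genes was Nanog, Esrrb, Tcf7l1, Sox2, Tfcp2l1, Klf4, Zfp42, Pou5f1 and Sall4, and without replicates no neighbours in this order can be said to differ. By summed score, which counts every peak of a gene, Tcf7l1 came first (32.96), before Nanog (23.6), Esrrb (19.8) and Tfcp2l1 (17.98). Tcf7l1 ranked 95 among all genes by that sum and 343 by its highest peak. The sum grows with the number of peaks, for which Tcf7l1 was chosen, so nothing is drawn from its places by sum.

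In sequence, the 22 peaks varied widely. Their median GC content was 52.6% (25% to 80%) against 55.4% in the list. Intronic peaks were set against the introns of their own gene and all others against its merged exons. By this measure 13 of the 22 had more GC, and no share of all peaks was counted. The median length was 67.5 nt against 58 nt. At the mode stood C in 9 peaks, G in 7, A in 6 and U in 0 of 22. For an observed 0, a rough upper limit of 3 counts was taken, which is 13.6% of the 22 peaks. It holds only if the peaks are independent, which peaks of the same gene may not be, and it is not a test. In the list U stood at the mode in 24.2% of peaks, and the difference was not tested.

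A set of 6 words was counted on the sense strand, the first 4 of which overlap each other and were chosen in an earlier analysis of the same list. The word CCTCCT occurred in 2 of the 22 peaks (8.79% of all peaks of the list), those in the Nanog 3'UTR and in intron 4 of Zfp42. TCCTCC was found in 1 (8.03% of all peaks), the coding peak of Sox2, and CTCCTC in 1 (7.48% of all peaks), the coding peak of Nanog.

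The word CCCCTC was present in 3 of the 22 peaks (6.84% of all peaks), 1 each in Tcf7l1, Klf4 and Zfp42. In Tcf7l1 this is the peak with the highest score, in which the stretch CACATCATCCCCC stands 2 times, so that its pyrimidine-rich sequence is present in a pair of near copies.

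Purine-rich GGAGA, a textbook motif of SR splicing factors, was in 0 of the 22 peaks (6.78% of all peaks). A run of 5 uridines, written TTTTT, was in 6 (11.2% of all peaks). Of these, Esrrb held 2, and Nanog, Sall4, Tfcp2l1 and Tcf7l1 held 1 each. At these counts a single peak moves each share by several percentage points, and the shares were not tested.

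Repeats and similar sequence elsewhere in the genome bear on where reads were placed. More than 50% of the bases were repeat-masked in 7 of the 22 peaks, against 21.2% of all peaks, and 0 of these 7 were in Tcf7l1. Another place in the genome with at least 80% identity over at least 80% of the length was found for 8 peaks. This search was run for the 22 peaks only, so no share of all peaks stands beside it. For Esrrb intron 5 there were 105622 such places, and for 1 intronic Tcf7l1 peak (chr6:72700666-72700734) 18. The other 6 Tcf7l1 peaks had none, although the peak of 15 nt could only be searched for exact copies. Matches also had to pass an e-value limit, which weak matches of other short peaks may miss.

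The highest score of the 10 genes was among those touched. The Nanog 3'UTR peak is 77.2% repeat-masked, and a place on chromosome X matched it over 268 nt with 97.4% identity. A stretch of 1325 nt around that place, which overlaps the pseudogene Nanog-ps1, matches the Nanog transcript at 97.4%, and 0 peaks were listed there. Over all 10 genes, 143 stretches elsewhere of at least 300 nt and 85% identity matched a spliced transcript of theirs, and 0 of them held a listed peak. How many peaks stretches of such length hold elsewhere was not counted, so nothing is drawn from the 0. Shorter likeness was common. At 80% identity over 80% of the peak, on either strand, 110 listed peaks of other genes resembled a transcript of the 10 genes. Of these, 61 resembled that of Tfcp2l1, 31 that of Tcf7l1, 19 that of Sall4, 17 that of Nanog and 9 that of Zfp42, and some resembled several. The 110 include the listing of the Sox2 interval under Sox2ot. All matches to Tcf7l1 lay within nt 2244 to 2297 of its transcript, and most of those to Tfcp2l1 within nt 2949 to 3098. For Nanog, 13 of the 17 overlapped its 3'UTR peak, several of them only at its 5′ edge. For Tcf7l1 and Tfcp2l1 0 overlapped an exonic peak of the gene, and Sall4 and Zfp42 had no exonic peak to overlap. Another 3 matches were to annotated small structured RNAs, from the peaks in the Nanog 3'UTR (Gm27896, 78.4% identity), Esrrb intron 5 (Gm25072, 82.4%) and an intron of Tfcp2l1, the first on the same strand and the other two on the opposite strand. Of all peaks, 13.2% had such a match. The part of repeats and copies in these scores was not tested.

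A short peak can also come from primer sequence, so the peaks were searched for the start of the adapter in the reverse transcription primers. Of the 22 peaks, 1, the Tcf7l1 peak at the start of intron 3, was 18 nt or shorter, against 9.11% of all peaks. AGATCG, with which the adapter begins, was in 0 of the 22, as was its reverse complement CGATCT. The share of all peaks with either word is not reported here, and an origin from primer sequence was not tested.

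The pathway around Tcf7l1 was taken next, from lists of its other parts. Of 18 TCF/LEF factors and β-catenin partners, 4 had a peak (22.2%), or 3 of 17 (17.6%) without Tcf7l1, against 9.78% of protein-coding genes. They were Tcf7l1 itself, the co-repressors Ctbp2 (5 peaks, all intronic, highest score 5.58) and Tle3 (4.32), and the β-catenin co-activator Bcl9l (3.33). Tcf7, Tcf7l2, Lef1 and Ctnnb1 had none. Of 24 Wnt receptors and members of the β-catenin destruction complex, 7 had a peak (29.2%, against the same 9.78%), and 3 had one among the 50% of peaks that scored highest. The 5 highest scores were those of the scaffold protein Apc (37.7, an intronic peak of 16 nt), the receptor Ror2 (12.04, an intronic peak of 28 nt), the receptor-clearing ligase Znrf3 (6.89) and the Frizzled receptors Fzd7 (4.00) and Fzd8 (3.53).

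Other genes of the pluripotent state and markers of other states were counted in the same way. In a wider list of 35 pluripotency genes 19 had a peak (54.3%, against 9.78% of all protein-coding genes). They held 29 peaks, of which 24 were exonic (82.8%, against 50.7% of all peaks). The highest scores there were those of Trim28, a co-repressor of transposable elements (31.2), the Krüppel-like factors Klf2 (23.8) and Klf5 (17.3), the adhesion molecule Cdh1 (E-cadherin, 21.5) and the growth factor Fgf4 (9.87). Of 26 markers of differentiated lineages 3 had a peak (11.5%), near the 9.78% of all protein-coding genes: Vim (3.71), Tubb3 (3.00) and Pecam1 (1.98). As a check of the cell label, 8 of 9 ESC marker genes had a peak, but a peak is not a transcript level, and the share of the lineage markers, so near that of all genes, says nothing of them. These shares are counts of listed genes with no test, and how far they follow transcript levels was not tested here. The lists were written with earlier results of these data known. The paper reports higher expression for genes with BAZ2A-iCLIP sites than for genes without them.

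**Figure D5:**
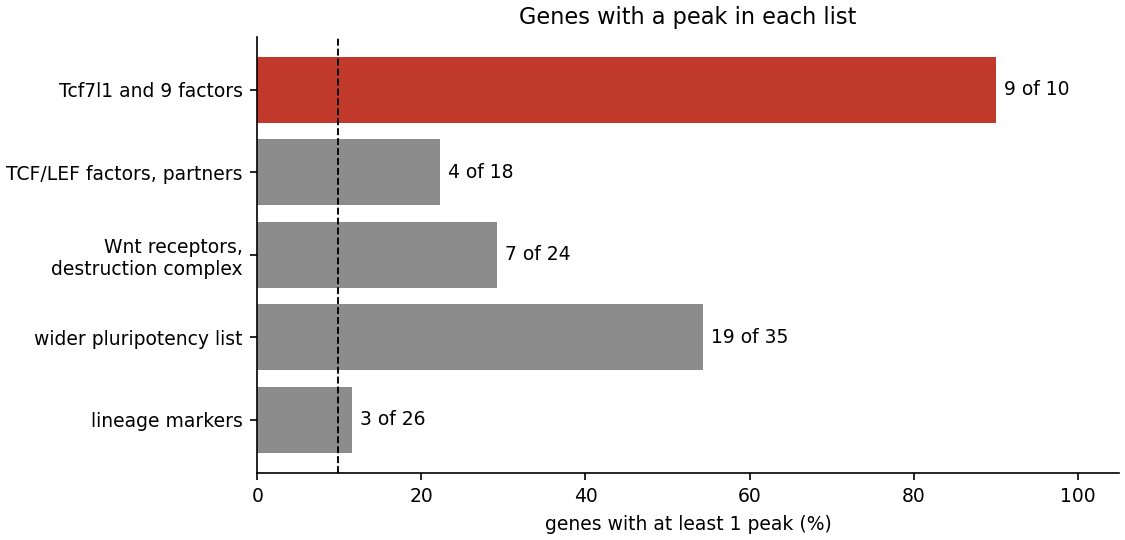
Share of genes with at least 1 peak in each list, with the number of genes beside each bar. The dashed line is the share among all protein-coding genes (9.78%). The 10 genes described here stand at 9 of 10, the wider pluripotency list at 19 of 35 and the lineage markers, at 3 of 26, near the dashed line. Tcf7l1 was chosen for its peaks and counts in the first 2 bars.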

How the data were processed

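BAZ2A-iCLIP was carried out in 3 crosslinked and 3 background libraries of mouse ESCs, grouped by sample titles. The authors trimmed reads with Flexbar, mapped them to mm10 (GRCm38) with STAR (version 2.6), removed duplicates with UMI-tools (version 0.5.1) and called peaks with omniCLIP, with an Ensembl annotation. Per the methods, crosslinked and background replicates were combined in pairs for sequencing. The deposited list gives, for each peak, a score from the peak caller whose scale is not stated, an interval, a strand, a gene and a mode.

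The members and gene lists were chosen with earlier results of these data known. All 10 genes were described, as were the 5 highest scores of each further list, genes with as many peaks as Tcf7l1, and genes lying over a member. Other genes were named after their values were seen. Each peak took the class of its midpoint (CDS before 3'UTR, 5'UTR, non-coding exon and intron) in the gene it was listed under, from GENCODE M21, which held 2286 of the 2288 genes. Of the list symbols, 1 was matched through a RefSeq synonym. Sequences and soft-masking came from RefSeq GRCm38.p6. The position of a peak was given in 1 transcript per gene. Similar places were searched with blastn 2.17.0, and matches to 6109 structured RNAs with an e-value up to 1e-05 over at least 50% of the peak. Python 3.11.15, pandas 2.3.3, pysam 0.24.0 and matplotlib 3.10.9 were used. Class assignment was checked on simulated positions. No replicate or depth value was analysed, so everything is description. Sequences of the other 11 of the 22 peaks are not reported here.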

Additional observations from a re-analysis of the deposited data

How the results depend on the processing

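Of 48 values under alternatives, 36 stayed within the limits set for a like value (counts within 1.5 times) and 12 moved. Among the 50% of peaks that scored highest, 5 of the 10 genes had a peak, with 9 peaks in all and 3 in Tcf7l1, and of the further lists 3 Wnt receptors or destruction complex genes and 0 lineage markers did. The share of protein-coding genes with a peak was then 5.07%. With the top 10%, 2 genes had a peak (2 peaks, 0 in Tcf7l1), against 1.10% of protein-coding genes. Fewer peaks follow from the stricter limit itself. Per kb of merged exon, Tcf7l1 had 1.78 peaks in place of 0.0430 per kb of span, since exons are a small part of the gene. By summed score Tcf7l1 held place 1 among the 10 genes, and by highest peak place 3. Place 1 rests on the number of peaks, for which Tcf7l1 was chosen. With peaks extended by 20 nt on both sides, TCCTCC was in 2 and GGAGA in 2 of the 22 peaks. Peaks of 18 nt or shorter left out, merged peaks and other rules for the class moved none of the counts of the 10 genes by over 1.5 times.

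No paired analysis was possible because the list pools the libraries and carries no replicate. Leave-one-out fits were not run, since no replicate has its own values. Depth cannot be read from the list, so an absent peak, as in Lin28a, sets no limit on binding.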
